A study of Mus musculus with 141 samples.

Results

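The matricellular and proteoglycan genes, with other secreted matrix genes, followed across the epithelial classes of the mouse lung were Sparc, Spock2, Timp3, Dcn, Ltbp4, Bgn, Fn1 and Mgp, 8 of the 17136 genes in the count matrix. They encode secreted proteins of the extracellular matrix, and they were chosen by name because of their levels in these cells, so the levels given here are descriptions and carry no test. The cells came from 1 male mouse of 4 months and 1 condition. Its genotype was ACID;R26tdTomato, with the strain given as 129SV in the labels and as 129S6/SvEvTac in the study's methods. In it a cre placed in the Aqp5 gene switches on a floxed-stop tdTomato reporter, so that cells that ever used Aqp5, and their progeny, are labelled. Lung cells sorted as CD31- CD45- E-cadherin+ tdTomato+ were captured on a Fluidigm C1 chip, and the captured cells used here each gave a column of read counts. GEO's cell type label calls every one of them an alveolar type 1 cell. The classes below were set from the counts instead. Columns with less than 0.15 of their reads on the 37 mitochondrial (mt-) genes were kept, which left 92 columns and set 49 aside. A cell with at least 5000 CPM of Ager (CPM being a gene's reads scaled to the depth of the cell), a receptor enriched in flat gas-exchange cells, was called type 1, and a cell with at least 8000 CPM of Sftpc, the surfactant protein of cuboidal secretory cells, was called type 2. This gave 45 type 1 cells, 11 type 2 cells and 34 remaining cells, with no cell past both thresholds. The lowest type 1 cell had 9335 CPM of Ager and the highest cell outside had 1402. The lowest type 2 cell had 25437 CPM of Sftpc and the highest cell outside had 7774. The last 2 kept columns carried fibroblast genes and are given on their own.

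The 34 remaining cells were divided by which of 3 marker lists led in each cell: club-like (13 cells), basal-like (9 cells) and ciliated-like (12 cells). In 1 of them, a basal-like cell, the leading list was ahead by less than 1 on the log2 scale. In 4 of them, counting that cell, it was ahead by less than 1.5. Marker lists that hold neither Ager nor Sftpc were high in the classes named for them, with a 12-gene type 1 list summing to 31661 CPM in type 1 cells and 2088 in type 2 cells, and a 12-gene type 2 list summing to 498 and 75678 CPM. In basal-like cells the basal list summed to 9097 CPM and the club list to 13992 CPM, so club genes were also read there, and their part in the values below was not tested. The tdTomato reporter was read in 39 of 45 type 1, 2 of 11 type 2 and 29 of 34 remaining cells. Because all cells came from the same mouse, there is no replicate of any class. A class level is the CPM of the summed reads of its cells with an exact Poisson 95% interval, which covers counting error only, since the reads were counted after PCR without molecular identifiers. The spread between cells is given as the lowest, median and highest cell. Kept cells had 142003 to 2170760 reads, with medians of 468718 in type 1, 413806 in type 2 and 665120 in the remaining cells.

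Matricellular proteins and proteoglycans sit between cells and the structural collagens. Sparc is a secreted collagen-binding glycoprotein, and Spock2 (testican-2) is a proteoglycan of the same family. Timp3 is a metalloproteinase inhibitor that stays bound to the matrix. Dcn (decorin) and Bgn (biglycan) are small leucine-rich proteoglycans that bind collagen fibrils and growth factors, Ltbp4 holds latent TGF-beta and takes part in elastic fibre assembly, Fn1 is fibronectin, and Mgp is a vitamin K-dependent inhibitor of calcification. In lung, fibroblasts and other mesenchymal cells are the best known source of Dcn, Bgn, Fn1, Ltbp4 and Mgp.

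In GENCODE vM21 (GRCm38), Sparc lies at chr11:55394500-55423183 on the minus strand, Spock2 at chr10:60106219-60135198 (plus), Timp3 at chr10:86300372-86349506 (plus), Dcn at chr10:97479609-97518143 (plus), Ltbp4 at chr7:27305136-27337692 (minus), Bgn at chrX:73483602-73495933 (plus), Fn1 at chr1:71585520-71653200 (minus) and Mgp at chr6:136872435-136875823 (minus). All 8 are protein-coding genes. Timp3 overlaps Syn3, a synapsin gene on the opposite strand that is also in the matrix, and the sources used here do not say whether counting used strand, so reads of that overlap cannot be told apart.

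The promoters below belong to the 3 members highest in type 1 cells and to Ltbp4, which was highest in basal-like cells. They run from 250 bases before to 50 bases after the transcription start in RefSeq (GRCm38.p6), 5′ to 3′ on the gene's strand, and the RefSeq start of Sparc lies inside the bounds of the GENCODE gene. RefSeq tables held a promoter for 5 of the 8 members, the other being Bgn. Capitals mark the GC box, GGGCGG or CCGCCC on the other strand.
Sparc, chr11:55420031-55420330 (minus): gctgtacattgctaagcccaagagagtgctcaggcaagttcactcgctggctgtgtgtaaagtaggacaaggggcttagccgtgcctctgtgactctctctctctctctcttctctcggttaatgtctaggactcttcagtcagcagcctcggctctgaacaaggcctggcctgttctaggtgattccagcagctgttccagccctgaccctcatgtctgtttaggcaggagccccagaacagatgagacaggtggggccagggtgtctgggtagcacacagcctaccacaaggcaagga
Spock2, chr10:60106007-60106306 (plus): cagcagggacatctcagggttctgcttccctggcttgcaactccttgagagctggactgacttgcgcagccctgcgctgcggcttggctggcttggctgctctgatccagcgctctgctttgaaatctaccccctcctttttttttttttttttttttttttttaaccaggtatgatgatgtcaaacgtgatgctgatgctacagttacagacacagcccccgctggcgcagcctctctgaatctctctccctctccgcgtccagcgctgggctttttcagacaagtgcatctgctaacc
Timp3, chr10:86300162-86300461 (plus): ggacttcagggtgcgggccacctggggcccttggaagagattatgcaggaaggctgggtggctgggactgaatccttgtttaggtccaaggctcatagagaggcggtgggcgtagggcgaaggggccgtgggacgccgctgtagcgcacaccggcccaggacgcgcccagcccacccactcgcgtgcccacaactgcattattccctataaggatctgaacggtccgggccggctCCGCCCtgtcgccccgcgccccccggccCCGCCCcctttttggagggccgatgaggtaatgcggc
Ltbp4, chr7:27337563-27337862 (minus, the most upstream of 3 listed starts): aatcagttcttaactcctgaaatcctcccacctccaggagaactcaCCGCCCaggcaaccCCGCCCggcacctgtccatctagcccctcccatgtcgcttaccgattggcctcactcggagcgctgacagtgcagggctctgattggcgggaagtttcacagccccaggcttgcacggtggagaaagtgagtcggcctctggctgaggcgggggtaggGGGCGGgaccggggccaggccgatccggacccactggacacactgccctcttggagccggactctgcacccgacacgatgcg

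The Sparc and Spock2 promoters held no GC box. The Timp3 promoter held 2 and the Ltbp4 promoter 3, against at least 1 in 35.7% of 32851 RefSeq promoters of the same length. The Timp3 window held 24 CG dinucleotides and the Sparc window 4, where the median promoter held 7. None of the 5 member promoters held GGAATG, the core letters bound by TEAD factors (14.7% of all promoters), TGANTCA of AP-1 (7.81%) or TATAAA (13.6%), all searched on both strands, and GGGCGG was the only other motif searched.

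Sparc, Spock2 and Timp3 made up the type 1 pattern. All 3 were read in every type 1 cell, and each was at least 4-fold higher there than in the other 45 epithelial cells together. Over all genes with at least 5 CPM, 19.8% of 10431 were 4-fold or more higher in type 1 cells, and the members were picked for this pattern, so the count of 3 is read no further. Dcn and Ltbp4 were 4-fold or more lower (23.4% of all genes), and Bgn, Fn1 and Mgp fell below the 5 CPM minimum.

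Sparc stood at 4402 CPM in type 1 cells (95% interval 4375 to 4429), with 968 in the lowest cell, a median of 4029 and 8793 in the highest. Its level was 271 CPM in type 2 cells (259 to 284) and 121.9 CPM in the remaining cells (117.6 to 126.4). Type 1 cells were therefore 28.7-fold above all other cells (27.9 to 29.6). Cell by cell, 43 of 45 type 1 cells exceeded the highest cell of any other class, a type 2 cell at column 6 row 30 of the chip with 1104 CPM. That cell held 44.8% of all type 2 Sparc reads, and without it the type 2 level was 168 CPM. The type 2 cells themselves ran from 0 to 1104 CPM with a median of 205, and 7 of 11 were over 100 CPM.

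Among the remaining cells Sparc was highest in the basal-like cells at 429 CPM (413 to 445). These cells split into a group of 4 at 369 to 850 CPM and a group of 5 at 0 to 22.4 CPM. In club-like cells the level was 24.5 CPM, and it was 4.88 CPM without the cell at column 1 row 37, which held 81.98% of the reads. Ciliated-like cells were lowest at 2.57 CPM, with 17 reads in 12 cells. The order of the levels was type 1, basal-like, type 2, club-like and ciliated-like. The basal-like and type 2 ranges of cells overlapped from end to end, so their order rests on a few cells.

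**Figure D1:**
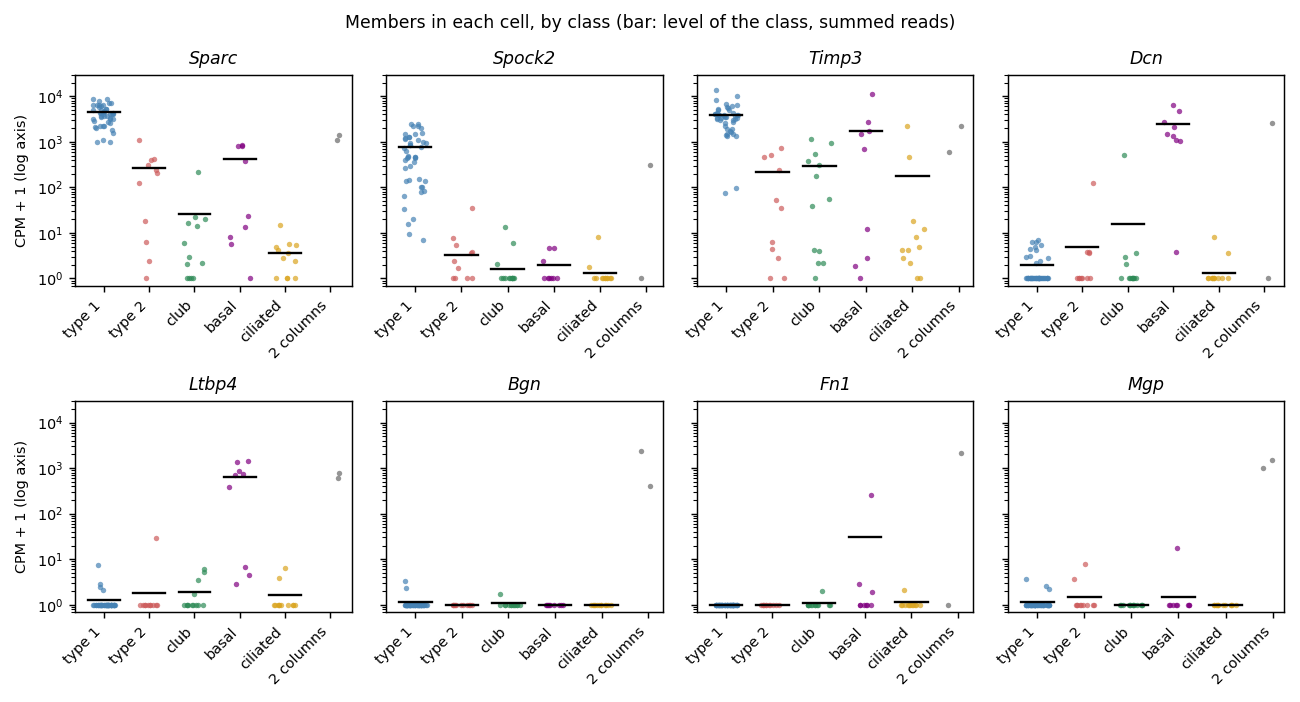
Each point is a cell and each panel a gene, with CPM + 1 on a log axis and the cell class on the horizontal axis; "2 columns" are the kept columns with fibroblast genes, and the black bar is the level of the class from summed reads. Sparc, Spock2 and Timp3 were highest in type 1 cells, Dcn and Ltbp4 were high in basal-like cells, and Bgn and Mgp rose above 100 CPM in the 2 columns but in no epithelial cell.

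Spock2 showed the widest contrast of the type 1 genes. Its level was 766 CPM in type 1 cells (755 to 778), against 30 reads or 0.971 CPM in all other epithelial cells together, a 789-fold difference (552 to 1169). The type 1 cells differed widely among themselves, from 6.14 CPM through a median of 474 to 2496. The coefficient of variation between type 1 cells was 95.1% for Spock2, 65.03% for Timp3 and 47.3% for Sparc. With each cell thinned to 90000 reads, 43 of 45 type 1 cells still had a Spock2 read. Outside type 1 the reads were few: 15 in type 2 cells (2.32 CPM), while basal-like cells had 6, club-like 7 and ciliated-like 2. The highest of these cells was a type 2 cell at column 16 row 6 with 34.5 CPM from 6 reads. The 5 lowest type 1 cells were below it and 40 of 45 were above it. Of the epithelial classes outside type 1, type 2 had the highest level, with a counting interval of 1.296 to 3.82 CPM. The interval was 0.244 to 1.25 in club-like and 0.037 to 1.09 in ciliated-like cells. The interval of basal-like cells (0.353 to 2.09) overlapped those of all 3. Without the cell at column 16 row 6 the type 2 level was 1.43 CPM. As the intervals do not cover the spread between cells, the order of these classes is not firm.

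Timp3 was the least restricted of the 3. Type 1 cells held 3891 CPM (3865 to 3916), with 75.4 in the lowest cell, a median of 3558 and 13698 in the highest. The ratio to all other cells was 7.12-fold (7.003 to 7.24), and 11.1-fold (10.9 to 11.3) without the cell at column 12 row 11, a basal-like cell that held 36.97% of the Timp3 reads outside type 1. Only 2 type 1 cells were under 1000 CPM, at 75.4 and 96.9. The level was 1764 CPM in basal-like cells (1731 to 1797), 288 in club-like and 214 in type 2 cells, and ciliated-like cells had 175. In type 2 and club-like cells the range was wide, from 0 to 736 and from 0 to 1178 CPM. In basal-like and ciliated-like cells most of the reads came from 1 cell. Basal-like cells ranged from 0 to 11290 CPM, and 56.7% of their reads came from the cell at column 12 row 11. Without that cell the basal-like level was 838 CPM. A ciliated-like cell at 2215 CPM held 79.4% of the reads of its class, which stood at 38.5 CPM without it. The other cells with high Timp3 were spread over the classes, and 17 of the 45 cells outside type 1 were above the lowest type 1 cell. The cells of type 2, club-like and ciliated-like classes overlapped throughout, and their order is not firm.

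The 3 genes were also set against each other within the type 1 cells. Over the 45 cells Spearman's rho was 0.00092 between Sparc and Spock2, 0.21 between Sparc and Timp3 and -0.16 between Spock2 and Timp3. Against the number of reads per cell, rho was 0.24 for Sparc, 0.056 for Spock2 and 0.12 for Timp3. Igfbp2, an insulin-like growth factor binding protein used as a marker of mature type 1 cells, gave rho of 0.27 with Sparc, 0.28 with Spock2 and -0.090 with Timp3. In the 19 left-out type 1 cells rho was 0.026 between Sparc and Spock2, 0.48 between Sparc and Timp3 and -0.20 between Spock2 and Timp3. The cells share 1 mouse and 1 chip, and these values are descriptions. On the chip, Spock2 stood at 682 CPM in the 26 type 1 cells of columns 1 to 10 and at 877 CPM in the 19 of columns 11 to 20. Timp3 went the other way, at 4350 and 3284 CPM, and Sparc was at 4768 and 3918 CPM. The ranges of the cells in both parts of the chip overlapped for each gene.

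**Figure D2:**
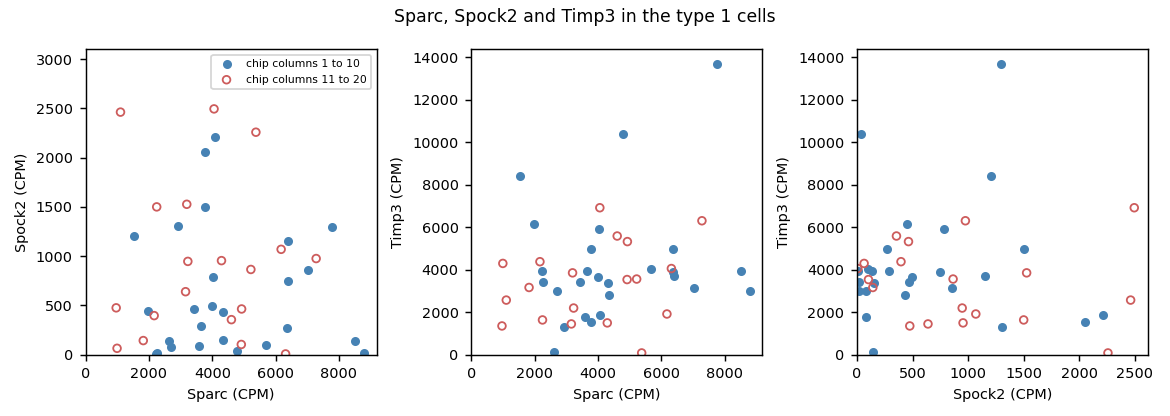
Each point is 1 of the 45 type 1 cells, and each panel sets the CPM of 2 genes against each other on linear axes, with filled points for chip columns 1 to 10 and open points for columns 11 to 20. Cells high in Spock2 were found across the range of Sparc and Timp3, with rho of 0.00092 and -0.16.

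Across all 90 kept epithelial cells, the genes with the most similar pattern were sought among 5300 genes read in at least 20% of cells. For Sparc these were Vegfa (rho 0.80), Ager (0.79) and Col4a3 (0.77). For Spock2 they were Col4a4 (0.83), Pmp22 (0.83) and Ager (0.81), and for Timp3 Hopx (0.74), Clic5 (0.74) and Col4a3 (0.74). Col4a3 and Col4a4 encode basement membrane collagen chains. For Ltbp4 the genes were Krt15 (0.72), a keratin, and Fxyd3 (0.64), while no gene reached the limit of 0.6 for Dcn, Bgn, Fn1 or Mgp. As most of these genes separate the classes, the values largely restate the class difference.

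No member was 4-fold or more higher in type 2 cells (6.70% of all genes were), and the 5 members over the minimum were all lower there (49.8% of all genes). In the remaining cells, Dcn and Ltbp4 were higher (18.9% of all genes), and this came from the basal-like cells, where they were again the members called higher (12.3% of all genes). Sparc, Spock2 and Timp3 were lower in the remaining cells (22.4% of all genes), and in basal-like cells Sparc and Spock2 were (48.9% of all genes). In club-like and ciliated-like cells no member was higher (6.02% and 15.4% of all genes) and the 5 members over the minimum were all lower (45.5% and 41.4%).

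Dcn was read in 9 of 9 basal-like cells, at 2456 CPM (2418 to 2496). The cells ran from 2.82 to 6386 CPM with a median of 1504, and 8 of 9 were over 1000 CPM. In contrast, the level was 0.994 CPM in type 1 cells (23 reads in 12 of 45 cells), 4.01 in type 2, 14.5 in club-like and 0.302 in ciliated-like cells. Basal-like cells were 538-fold above all other epithelial cells (471 to 618), and 2120-fold (1628 to 2815) without the club-like cell at column 9 row 24. In 2 of the other classes a single cell held most of the reads. That club-like cell, with 516 CPM, held 97.6% of the club-like Dcn reads. Its list lead was only 1.23 on the log2 scale, so its class is near the cut. The type 2 cell at column 16 row 6, with 126.4 CPM from 22 reads, held 84.6% of the type 2 reads. The same type 2 cell had the highest Spock2 and Ltbp4 levels outside the classes where they were high, and it was among the shallowest at 174055 reads.

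Ltbp4 was also read in 9 of 9 basal-like cells, at 627 CPM (608 to 647) with a median of 723. It split them into 6 cells at 380 to 1457 CPM and 3 cells at 1.80 to 5.91 CPM. In type 1 cells 7 reads gave 0.303 CPM, and the levels were 0.772 in type 2, 0.953 in club-like and 0.604 in ciliated-like cells. Against all other cells the basal-like level was 1110-fold higher (762 to 1687). The highest cell outside had 28.7 CPM.

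Dcn and Ltbp4 were not always high in the same basal-like cells. Both were over 100 CPM in 5 of 9 cells, Dcn alone was in 3 and Ltbp4 alone in 1. The 3 cells with Dcn alone held 6386, 2744 and 1504 CPM of it. The cell with Ltbp4 alone, at column 2 row 24, held 1332 CPM of Ltbp4 and 2.82 CPM of Dcn. Over the 9 cells rho between Dcn and Ltbp4 was -0.67. The 4 cells of high Sparc all had Dcn over 1000 CPM, and of the 5 cells with Timp3 over 100 CPM, 4 had Dcn over 100 CPM as well. Without the basal-like cell of the smallest list lead, at column 4 row 3, the basal-like levels were 2115 CPM for Dcn, 664 for Ltbp4, 491 for Sparc and 1615 for Timp3.

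**Figure D3:**
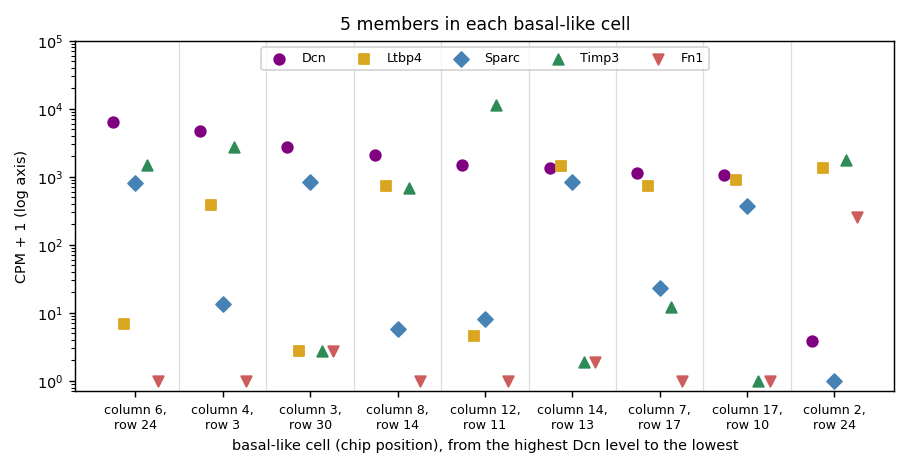
The 9 basal-like cells stand along the horizontal axis by chip position, from the highest Dcn level to the lowest, and the vertical axis gives CPM + 1 of 5 members on a log scale. Dcn was over 1000 CPM in 8 of 9 cells, while Ltbp4, Sparc and Timp3 were each near 0 in some cells and over 300 CPM in others, and Fn1 was over 100 CPM in 1 cell.

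The basal-like cells were checked for fibroblast genes, because Dcn and Ltbp4 are best known from those cells. Of the 13 fibroblast markers in the matrix, 8 had no read in the 9 cells, among them Col3a1, Pdgfra, Tcf21 and Mfap4. For each of these 8 the counting interval of 0 reads ran up to 0.591 CPM. Vim, Col1a1 and Col1a2 had 1 read each and Serping1 had 4. The exception was Pcolce, a collagen-processing enhancer, at 296 CPM in 5 of 9 cells. Of epithelial genes that the basal list does not hold, Epcam was at 268 CPM with a read in 8 of 9 cells and Cdh1 at 155 CPM with a read in 6. Of the basal list, which chose these cells, Krt5 and Trp63 were low in the cell with the most Dcn, at 11.8 and 2.95 CPM. Both were at 0 in the cell at column 7 row 17, where Krt15 was at 291 CPM, Dcn at 1120 and Sftpc at 6694. In the cell at column 4 row 3, Trp63 was at 4.92 CPM and Krt5 at 394. The basal name is thus less firm for these cells. In every other basal-like cell both genes were at 50.5 CPM or more.

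Fibronectin was hardly read in the epithelial cells. Fn1 had 0 reads in the 45 type 1 and 11 type 2 cells, where the floor of 3 reads equals 0.130 and 0.463 CPM. It had 187 reads in the remaining cells, and 182 of them were in the basal-like cell at column 2 row 24, the cell of high Ltbp4 and low Dcn, at 257 CPM. Bgn had 4 reads and Mgp 9 reads in all 90 epithelial cells, so neither could be compared between classes at this depth.

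In the 2 columns with fibroblast genes, each of the 8 members was over 100 CPM in at least 1 column, but they did not hold the same set. The column at column 5 row 5 held 2389 CPM of Bgn, 2245 of Timp3, 2191 of Fn1, 1542 of Mgp, 1388 of Sparc and 784 of Ltbp4, with 0 reads of Dcn and Spock2. The column at column 8 row 21 held 2552 CPM of Dcn, 1086 of Sparc, 983 of Mgp, 620 of Ltbp4, 590 of Timp3, 402 of Bgn and 316 of Spock2, with 0 reads of Fn1. It was thus the one column outside type 1, among those kept, with more than 100 CPM of Spock2.

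Marker genes set these columns apart. Column 5 row 5 had reads of 9 of 13 fibroblast markers, with Tcf21 at 1338 CPM, Pdgfra at 771 and Mfap4 at 590, no read of 5 mesothelial markers and no tdTomato read. Column 8 row 21 also had reads of 9 of 13 fibroblast markers, including Col3a1 at 1089 CPM, but 0 reads of Pdgfra, Tcf21, Mfap4 and Dpt. It had reads of all 5 mesothelial markers, with Upk3b at 2376 CPM, Msln at 2143 and Wt1 at 177, and it had Krt8 at 184 CPM, Krt18 at 199 and tdTomato at 28.5. The fibroblast name therefore rests on only part of its markers. In both columns Epcam was at 0 and Cdh1, the E-cadherin gene of the sort, had 2 reads each.

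A further column with fibroblast genes was left out for its mt- share of 16.3%. It was picked out among the left-out remaining columns for a high level of Bgn or Mgp, so those levels follow from the choice. The column at column 11 row 32 held 2668 CPM of Bgn, 1171 of Dcn, 909 of Ltbp4, 509 of Mgp, 398 of Fn1 and 392 of Sparc, with Timp3 at 29.3. It had Pdgfra at 2102 CPM, Col1a1 at 1382 and Dpt at 749 and no read of the mesothelial markers or of tdTomato. By its thresholds it would count among the remaining cells, and it held every Bgn read of the left-out remaining columns.

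**Figure D4:**
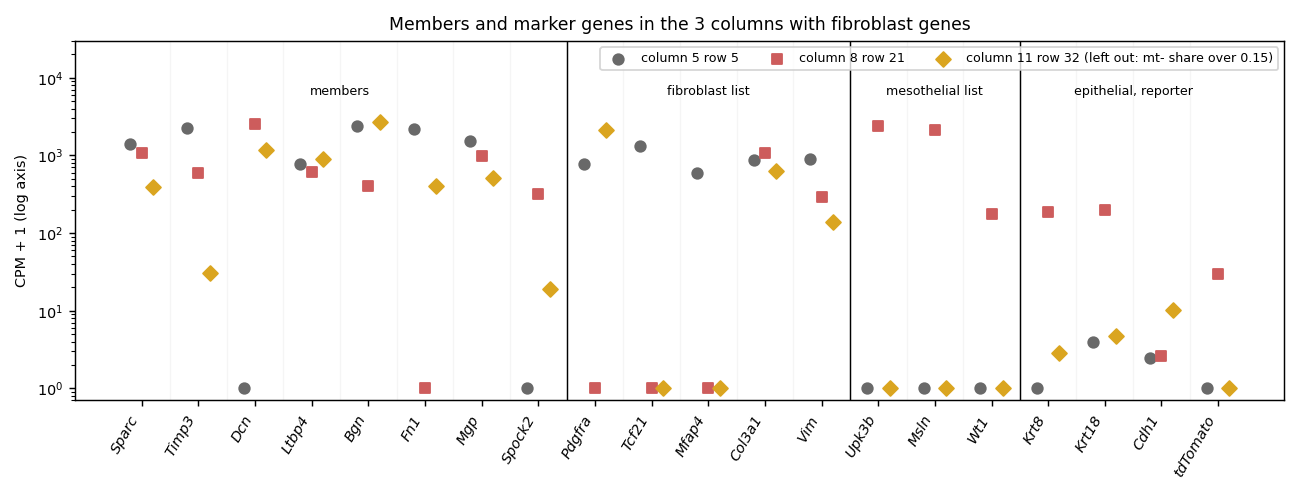
CPM + 1 on a log axis is shown for the 8 members and for fibroblast, mesothelial, keratin and reporter genes in the 3 columns with fibroblast genes, 1 symbol per column. Bgn and Mgp were over 400 CPM in all 3, Dcn and Fn1 were each at 0 in 1 of them, and the mesothelial genes were read in column 8 row 21 alone.

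The 49 left-out columns give the same measures in cells that did not enter the levels above. They come from the same mouse and chip and carry more mt- reads. The members were chosen with earlier results of these data known, so these columns are no independent check. Apart from column 11 row 32 they comprised 19 type 1, 16 type 2 and 13 remaining cells. Sparc stood at 3725 CPM in these type 1 cells against 254 in the other left-out cells (14.7-fold), Spock2 at 797 against 7.49 (106.4-fold) and Timp3 at 2200 against 481 (4.57-fold). For Spock2, 80.7% of the type 2 reads lay in 1 cell at 232 CPM, and without it the type 2 level was 2.62 CPM and the type 1 ratio 445-fold. Only 1 left-out cell was basal-like, at column 3 row 5. It held 912 CPM of Ltbp4 and 589 of Dcn, against 0.589 and 1.31 in the other 47. Of the reads of these 13 remaining cells, it held 415 of 428 for Dcn and 643 of 647 for Ltbp4. It also had 4970 CPM of Sftpc. Fn1 was read at 167 CPM in a club-like cell at column 20 row 30.

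**Figure D5:**
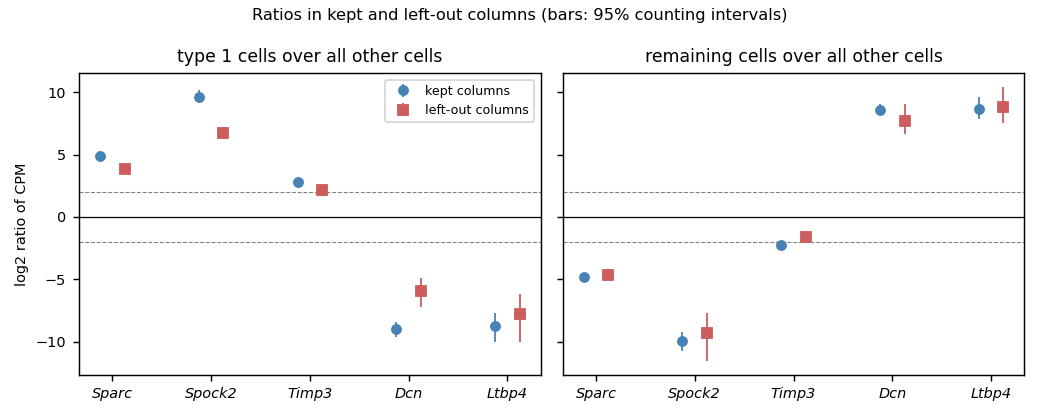
For 5 members, points give the log2 of the class CPM divided by that of the other epithelial cells, in the 90 kept cells and in the 48 left-out columns without column 11 row 32, for type 1 cells (left) and the remaining cells (right); bars are 95% counting intervals and dashed lines mark 4-fold. Sparc, Spock2 and Timp3 were above the 4-fold line in type 1 cells and Dcn and Ltbp4 in the remaining cells in both sets of columns. In the left-out remaining cells, 415 of 428 Dcn reads and 643 of 647 Ltbp4 reads lay in 1 cell, at column 3 row 5.

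The wider matrix families were read from lists of related genes, counting those at 4-fold or more and at least 50 CPM in a class. In type 1 cells 10.2% of all tested genes met this, with a median log2 ratio of 0.034 over all genes. Of the SPARC family, 3 genes could be tested, and those counted were Sparc and Spock2. Of the other matricellular genes, 1 of 5 was counted, Fbln5, an elastic fibre protein, at 320 CPM against 0.162 elsewhere. Of the 8 basement membrane and cell-surface proteoglycans tested, Agrn (636 CPM, in 43 of 45 cells), Hspg2 (319, in 29) and Gpc3 (105.4, in 21) were counted. Agrn was not limited to type 1 cells, being at 441 CPM in basal-like cells (in 8 of 9). Of 5 genes for fibronectin receptors and assembly, 3 integrin chains were counted, in cells that had no Fn1 read. They were Itgb1 (774 CPM, in 41 of 45 cells), Itgb6 (352, in 31) and Itgb3 (151, in 19). Among the latent TGF-beta binding proteins, fibrillins and ligands, 2 of 5 were counted. They were Ltbp3 at 1203 CPM (in 43 of 45 cells) and Tgfb2 at 151 (in 20). Ltbp3, which binds latent TGF-beta like Ltbp4, was thus in the class where Ltbp4 was at 0.303 CPM. The 2 genes did not divide between classes, since Ltbp3 was also at 540 CPM in basal-like cells (in 7 of 9), where Ltbp4 was at 627 CPM.

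Among protease inhibitors, Timp2 (613 CPM) was counted beside Timp3 in type 1 cells, 2 of 3 tested, with a median log2 ratio of 3.27 over the list. Of the metalloproteinases, 3 of 7 were counted, Adam10 (262 CPM, in 18 of 45 cells), Mmp11 (90.2, in 25) and Adam9 (83.7, in 21). No small leucine-rich proteoglycan (2 tested), no gene of the Gla protein and vitamin K group (6 tested) and no BMP gene (7 tested) was counted in type 1 cells.

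In type 2 cells 5.15% of all tested genes met the same limits. Those in the lists were Thbs1, the matricellular protein thrombospondin-1, at 794 CPM in 10 of 11 cells, and the BMP ligands Bmp3 (113.9 CPM) and Bmp2 (68.9), each in 4 of 11 cells. In basal-like cells 10.2% of all tested genes met them. Beside Dcn and Ltbp4, they were Ctgf (812 CPM, in 8 of 9 cells), a matricellular growth factor modulator, and Efemp1 (466 CPM, in 7), an elastic fibre protein. Sdc2 (205 CPM, in 2), a heparan sulfate proteoglycan, Bmp3 (98.2, in 5) and Bmp1 (89.7, in 4) also met the limits.

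In club-like cells 2.95% of all genes met the limits, and Chad, another leucine-rich proteoglycan, was the gene counted from the lists, at 126.6 CPM in 10 of 13 cells. In ciliated-like cells 12.8% did, among them Adamts5, an aggrecan-cleaving protease, at 342 CPM in 5 of 12 cells. The other list genes were Mmp15 at 81.5 CPM (in 5), Nqo1 at 68.9 (in 2) and Bmp5 at 62.6 (in 2). Smoc1, a SPARC family member, was also counted, at 50.9 CPM from 1 cell. In the remaining cells as a whole (6.29% of all genes) the list genes were Dcn, Ltbp4, Adamts5, Sdc2 and Chad.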

How the data were processed

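RNA was measured in single cells of 1 mouse, captured on a Fluidigm C1 chip and sequenced on a NextSeq. Trim Galore, HISAT2 on GRCm38 and featureCounts were the authors' tools for trimming, alignment and counting per gene (versions not given in the sources used here). The authors deposited whole-number read counts without normalization. Reads after PCR were counted, so counting intervals do not cover amplification.

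Columns with an mt- share of 0.15 or more were left out, together with the 2 columns with fibroblast genes. Class levels were CPM of summed counts over all reads, with exact Poisson 95% intervals. Ratios compared a class with all other kept epithelial cells and were called at 4-fold, over the 10431 genes with at least 5 CPM. A class with 3 or fewer reads was taken at 3 reads, and no ratio was given where both sides had under 10 reads. There was 1 mouse and thus no test. List scores were means of log2(CPM + 10). Cells were thinned to 90000 reads where stated. No doublet caller was run here. Per the study's methods, capture sites were checked by microscopy, and only single cells went on to analysis. The marker lists were type 1, type 2, club, basal, ciliated, fibroblast, smooth muscle, cartilage, mesothelial, endothelial and leukocyte genes. In type 1 cells the summed levels were 31661 CPM for the type 1 list, 498 for type 2, 758 for club, 18.8 for basal, 1415 for ciliated, 223 for fibroblast, 0.0865 for smooth muscle, 1.25 for mesothelial, 0.476 for endothelial and 383 for leukocyte genes. Of the type 1 cells' fibroblast list, 5133 reads were of Pcolce and at most 14 of any other gene. None of the 8 cartilage genes was in the matrix. It held 3 of 10 smooth muscle, 7 of 10 endothelial and 3 of 10 leukocyte genes, so those sums cover only part of each list. Lyz2 stands in both the leukocyte and the type 2 list.

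Named genes were all 8 members, at most the 3 highest list genes per list and class, and the 3 genes most like each member at rho of 0.6 or more. The members and lists were chosen with earlier results of these data known. Positions came from GENCODE vM21, which held 16112 of 17136 symbols. Software was Python 3.11.15, numpy 2.4.6, scipy 1.17.1, pandas 2.3.3, matplotlib 3.10.9, R 4.3.3 and scran 1.30.0. The ratio calculation was run on simulated data in which cells differed less than they did here for some members, such as Spock2 in type 1 cells. That run does not measure how often a 4-fold call rests on a few cells. The alternatives were other mt- limits, thresholds, library sizes, weights of cells, depths, chip columns and fold limits.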

Additional observations from a re-analysis of the deposited data

How the results depend on the processing

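The count of members higher in type 1 cells was 3 under every alternative run but an 8-fold limit, where it was 2 because Timp3 fell short, and the count in type 2 cells was 0 under all of them. In the remaining cells 2 members were higher, against 4 with all deposited columns, 5 with the columns of mt- share of 0.15 or more alone and 5 with the 2 fibroblast-gene columns kept in the class their thresholds give. In the first and second of these, leaving out the column at column 11 row 32, an alternative chosen after seeing the data, gave 2. Leaving out the basal-like cell of the smallest list lead was also chosen after seeing the data, as was leaving out, for each gene, the cell outside the class with the most reads. Across alternatives the log2 ratio of type 1 cells over all others ran from 3.82 to 5.12 for Sparc, 5.90 to 9.94 for Spock2 and 2.19 to 3.47 for Timp3, with the lowest Spock2 value where the 2 columns were kept. In the remaining cells it ran from 6.52 to 10.0 for Dcn and 5.34 to 9.41 for Ltbp4, lowest with the Sftpc threshold at 4000 CPM. No ratio changed sign. Of 275 ratios, 5 fell under 4-fold, all of Timp3 being lower in type 2 or the remaining cells. Of 416 class levels, 174 left the counting interval of the main value. No paired analysis was possible because the cells came from 1 mouse and 1 condition. At this depth the floor of 3 reads equals 0.123 to 0.481 CPM, depending on the class.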
